A study of Mus musculus with 18 samples.

Results

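Phase II conjugation enzymes attach a water-soluble group to drugs, hormones, bile pigments and reactive metabolites so that bile or urine can carry them away. They were taken here as the protein-coding genes whose names begin with Ugt1 to Ugt3, Gst followed by a, k, m, o, p, t or z, or Sult1 to Sult5. Of 55385 genes in the deposited count table, 62 have such a name and 57 of them reached at least 10 counts summed over the 18 libraries. These 57 members are 21 glutathione S-transferases (Gst), 18 sulfotransferases (Sult) and 18 UDP-glucuronosyltransferases or UDP-glycosyltransferases (Ugt). The other 5 (Gstt4, Sult1c1, Ugt2a1, Ugt2a2 and Ugt1a8) had 0 counts in every library.

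Liver RNA came from 18 mice aged 17.1 to 18.0 weeks, in 3 groups of 6 with 3 males and 3 females each. Dp16-2xIFNRs mice carry the same duplication as Dp16 mice but have the cluster of interferon receptor genes Ifnar1, Ifnar2, Il10rb and Ifngr2 back at 2 copies, with the rest of the segment still in 3 copies. Dp16 mice carry an extra copy of a segment of mouse chromosome 16 that corresponds to part of human chromosome 21, receptor cluster included. Wild-type mice are C57BL/6J. Both mutant groups thus share the added segment outside the receptor cluster. The labels do not say how many litters the mice came from, so p-values measure the spread between these mice. In the labels' descriptions 11 of the 18 libraries share a number with another, 5 numbers in all and each across groups, and what the number stands for is not given. The edgeR test does not use it, and as a random block in limma-voom it had a correlation of 0.407. None of the 57 members lies on chromosome 16, so none is present in an extra copy.

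UDP-glucuronosyltransferases add glucuronic acid from UDP-glucuronate, sulfotransferases add sulfate from PAPS, and glutathione S-transferases add the tripeptide glutathione to electrophiles. Hepatocytes are the main site of all of these reactions. In rodents many of the genes differ between the sexes under the control of growth hormone, which males release in pulses and females more continuously. Sensors of foreign compounds such as CAR (Nr1i3), PXR (Nr1i2), the aryl hydrocarbon receptor (Ahr) and NRF2 (Nfe2l2) are known to raise several members.

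The libraries held 38236222 to 59923315 counts, and the members took 0.835% to 1.28% of them. The sex labels matched sex-specific genes in 9 of 9 males and 9 of 9 females. Hepatocyte markers summed to 52989 to 81766 RPKM (reads scaled to gene length and library total) per library, while markers of T, B and NK cells summed to 1.65 to 11.2 RPKM. Dp16 library 4 (a male) and Dp16 library 5 (a female) had the lowest and the highest scaling factors, 0.803 and 1.34, and calls that they decide are given without them.

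Neighbouring genes of the pi class of glutathione transferases differed between the sexes in opposite directions, and their promoters are shown for that reason. Gstp1, Gstp2 and Gstp3 lie side by side on the minus strand of chromosome 19. In GENCODE M21 on build GRCm38 they run from 4035407 to 4037985, from 4040285 to 4046023 and from 4057477 to 4059569. Gstp1 and Gstp2 were higher in males and Gstp3 was lower in males, with values given below. RefSeq (build GRCm38.p6) gives the following windows, each 250 bases before to 50 bases after the RefSeq gene start, 5′ to 3′ on the minus strand. They are chr19:4037863-4038162 for Gstp1, chr19:4042172-4042471 for Gstp2 and chr19:4059398-4059697 for Gstp3. Capitals mark the AP-1 motif TGACTCA on either strand, which reads TGAGTCA on the other.
Gstp1: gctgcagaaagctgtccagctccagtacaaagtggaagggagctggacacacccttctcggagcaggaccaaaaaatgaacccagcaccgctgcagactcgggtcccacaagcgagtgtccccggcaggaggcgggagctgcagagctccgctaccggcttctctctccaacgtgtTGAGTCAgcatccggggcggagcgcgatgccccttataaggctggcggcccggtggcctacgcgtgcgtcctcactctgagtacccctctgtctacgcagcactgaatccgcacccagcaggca
Gstp2: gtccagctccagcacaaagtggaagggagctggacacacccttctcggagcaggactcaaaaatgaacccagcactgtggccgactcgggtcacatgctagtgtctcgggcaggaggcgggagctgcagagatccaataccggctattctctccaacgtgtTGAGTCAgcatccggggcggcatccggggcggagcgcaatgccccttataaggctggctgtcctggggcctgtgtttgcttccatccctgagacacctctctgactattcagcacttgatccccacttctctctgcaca
Gstp3: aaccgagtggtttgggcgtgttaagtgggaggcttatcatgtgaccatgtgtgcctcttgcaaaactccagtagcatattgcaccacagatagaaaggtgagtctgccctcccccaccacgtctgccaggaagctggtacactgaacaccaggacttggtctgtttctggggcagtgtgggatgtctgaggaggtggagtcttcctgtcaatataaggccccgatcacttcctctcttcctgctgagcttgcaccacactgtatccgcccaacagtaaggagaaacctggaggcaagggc
The motif stands once in the Gstp1 window, 74 bases before the RefSeq gene start, and once in the Gstp2 window, 89 bases before the RefSeq start. The RefSeq starts lie downstream of the GENCODE M21 starts for all 3 genes. For Gstp1 the motif lies across the GENCODE M21 gene start at 4037985, with most of its bases inside the gene. For Gstp2 the whole window, motif included, lies inside the GENCODE M21 gene, which starts at 4046023. The Gstp3 window does not hold these letters. In a global alignment the Gstp1 and Gstp2 windows were identical at 77.1% of columns, Gstp1 and Gstp3 at 52.3%, and Gstp2 and Gstp3 at 50.8%. Of 32851 RefSeq promoter windows of this length, 5.20% hold the motif. The table has entries for 49 of the 57 members in 60 windows, and besides Gstp1 and Gstp2 the motif is in windows of Gstm5, Sult1b1, Sult2b1 and Ugt2b37, 6 of the 60 windows or 10%. A match in these letters is a description of the sequence and not a mapped binding site.

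The families were used very unequally. Summed RPKM over all 18 libraries averaged 3993 ± 426 for Gst, 1490 ± 298 for Ugt and 830 ± 296 for Sult (SD, n = 18). Mean RPKM was at least 100 in 14 members, at least 10 in 38 and at least 1 in 47, so 10 members had a low mean of under 1 RPKM. Within each family 4 genes held most of the total, 75.3% for Gst, 86.4% for Sult and 68.6% for Ugt. The Ugt sum, share and order rest on RPKM that may be too low for the Ugt1a genes, as described below.

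Gstm1, a mu-class transferase, and Gsta3, an alpha-class transferase known in mice for detoxifying aflatoxin epoxide, led all members with 1108 ± 313 and 1034 ± 249 RPKM (SD, n = 18). Gstp1 followed at 435 ± 328 RPKM and Gstz1, which isomerises maleylacetoacetate in tyrosine breakdown, at 431 ± 115 RPKM. The means of Gstm1 and Gsta3, and those of Gstp1 and Gstz1, lie closer together than their SDs. Among sulfotransferases Sult1a1, which acts on phenols, had 285 ± 86.2 RPKM and Sult2a8, which sulfates bile acids in mouse liver, 275 ± 172 RPKM. Sult2a2, a hydroxysteroid sulfotransferase, had 98.5 ± 133 RPKM and Sult1d1, which acts on catecholamines, 57.9 ± 25.6 RPKM. The SD of Sult2a2 exceeds its mean. It had 0 counts in 8 of 9 males, and females ran from 48.2 to 366 RPKM. Ugt2b5 and Ugt2b36 stood level at 335 ± 102 and 333 ± 121 RPKM, above Ugt2b1 at 197 ± 114 RPKM and Ugt3a2, a UDP-glycosyltransferase that does not use UDP-glucuronate, at 157 ± 21.9 RPKM.

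**Figure D1:**
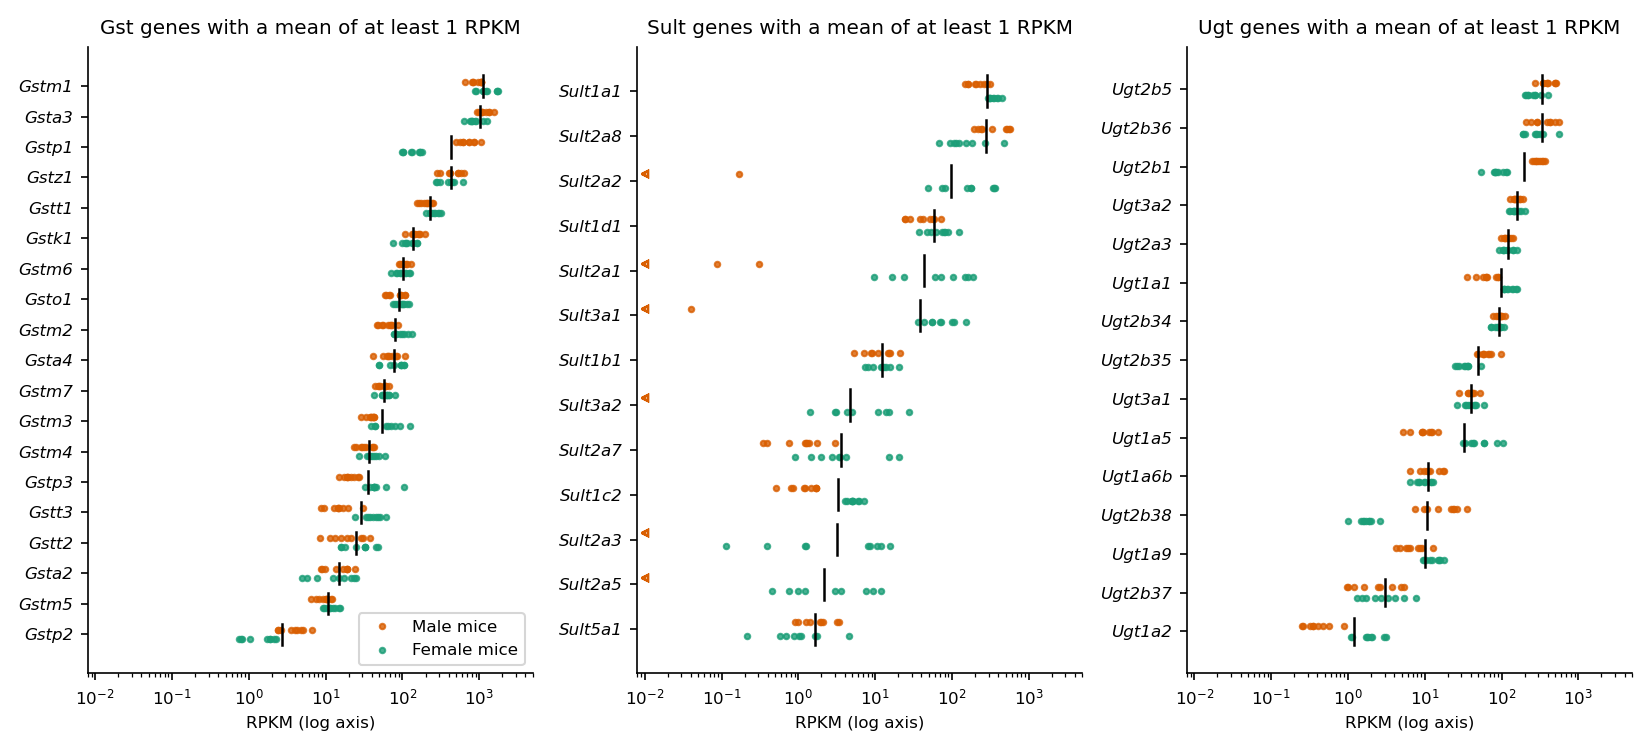
Deposited RPKM (log axis) of the 47 members with a mean of at least 1 RPKM, 1 point per library, males above females in each row, the black bar marking the mean over 18 libraries. Open triangles at the left edge are libraries below 0.01 RPKM; they appear for Sult2a1, Sult2a2, Sult2a3, Sult2a5, Sult3a1 and Sult3a2, in males.

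The Ugt1a genes need a word on counting. At this locus on chromosome 1 each gene has its own promoter and first exon, and the last exons are common to all. GENCODE M21 gives each Ugt1a gene 879 to 2142 exon bases that no other Ugt1a gene holds, 39.4% to 49.7% of its exon length. Ugt1a8 had 0 counts although it shares 1318 exon bases with the others, while Ugt1a1 had 60994 counts in males and 125587 in females. Reads in the shared exons were therefore not credited to every gene of the locus. The length behind the deposited RPKM was 2392 bases for Ugt1a6a, whose GENCODE M21 exons cover 4312, and 2244 for Ugt1a10, against 2267. The other members of the locus were within 2 bases of their full exon length. If reads in the shared exons were dropped, RPKM over the full length is too low for the Ugt1a genes. Their rank among Ugt genes and the Ugt sums would then be too low as well, and by how much was not tested. The deposited counts are labelled with a later GENCODE release than M21, and its part in these lengths was not tested. Close relatives elsewhere (Gstp1 with Gstp2, Gstm, Sult2a, Sult3a and Ugt2b genes) can also lose or exchange reads, and their levels are less certain for that reason.

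Members differed widely in how steady they were among mice of the same group and sex. The spread was taken as the pooled SD within group and sex, in percent of the mean over all 18 libraries. It was 13.7% for Ugt1a1, the bilirubin-conjugating enzyme, 15.9% for Gstm7 and 17.6% for Ugt2b34. It was 153.6% for Sult2a7, 134.3% for Sult2a5, 105.3% for Sult2a1 and 64.4% for Sult2a8. For Sult2a5 and Sult2a1 males were at or near 0 CPM, which lowers the mean of both sexes. Their percentages are therefore larger than the spread among females relative to the female mean. All values from here on that are given per library are CPM, counts relative to the TMM-scaled library total.

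The first question is whether the extra segment, with or without the extra receptor genes, changed these enzymes. Of the 57 members, 53 passed the filter on low counts, and Sult2a4, Sult2a6, Sult2b1 and Sult4a1, with 12 to 70 counts in all, did not. With the edgeR quasi-likelihood test and Benjamini-Hochberg adjustment over 15208 genes, 0 of 53 members passed an adjusted p of 0.05 in Dp16 over wild-type, where 0.0395% of all genes passed. In Dp16-2xIFNRs over wild-type 0 of 53 passed, against 0.0986% of all genes, and in Dp16-2xIFNRs over Dp16 0 of 53 passed, against 0% of all genes. At an unadjusted p under 0.05 there were 8, 6 and 4 members in Dp16-2xIFNRs over wild-type, Dp16 over wild-type and Dp16-2xIFNRs over Dp16, or 15.1%, 11.3% and 7.55% of those tested. Over all genes the shares were 8.66%, 4.87% and 9.32%. DESeq2 called 2, 1 and 0 members in the same 3 comparisons.

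Family totals were close across genotypes. Summed Gst RPKM averaged 4078 ± 393 in Dp16-2xIFNRs, 3869 ± 493 in Dp16 and 4031 ± 436 in wild-type mice (SD, n = 6 each). Summed Sult RPKM averaged 813 ± 155 in Dp16-2xIFNRs, 817 ± 272 in Dp16 and 859 ± 444 in wild-type mice. Summed Ugt RPKM averaged 1507 ± 200 in Dp16-2xIFNRs, 1446 ± 362 in Dp16 and 1518 ± 355 in wild-type mice. Every one of these differences is smaller than the spread within a group.

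The fitted changes of single members were mostly small. In Dp16 over wild-type the 53 members had a median log2 change of -0.17, with 35 below 0, beside 0.01 over all genes tested, of which 48.6% were below 0. The Gst members had a median of -0.31 with 15 of 21 below 0, and this median ran from -0.40 to -0.13 over 34 settings of the analysis. In Dp16-2xIFNRs over wild-type the median was -0.05, with 32 of 53 below 0, and that of the Gst members was 0.01. Set directly against Dp16, Dp16-2xIFNRs had a median of 0.18 over the members and of 0.33 over the Gst members (0.16 to 0.43 over the settings), with 17 of 21 above 0, beside -0.02 over all genes. The first and the last of these comparisons share the 6 Dp16 mice. Median changes of the Sult members were -0.50 in Dp16-2xIFNRs over wild-type, -0.24 in Dp16 over wild-type and -0.13 in Dp16-2xIFNRs over Dp16, and those of the Ugt members were -0.04, -0.04 and -0.09. Each of these 6 Sult and Ugt medians was above 0 under some of the 34 settings, and the Gst median in Dp16-2xIFNRs over wild-type lay on either side of 0.

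**Figure D2:**
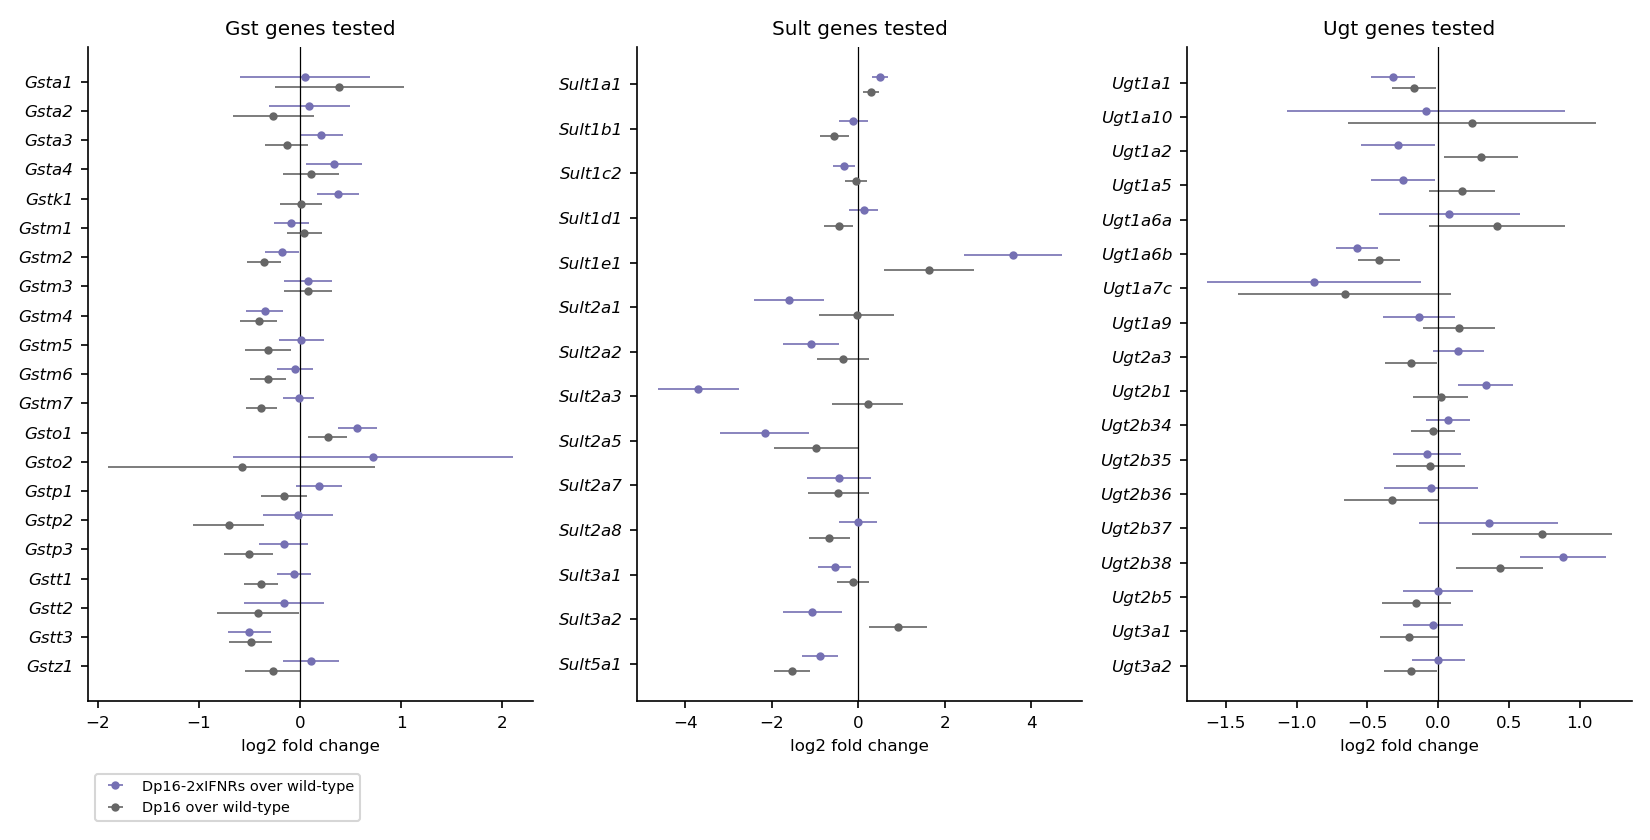
Log2 fold change of the 53 tested members from the edgeR fit, with bars of 1 standard error, in Dp16-2xIFNRs over wild-type and in Dp16 over wild-type, by family. Both comparisons use the same 6 wild-type mice, and 0 of the 53 members passed an adjusted p of 0.05 in either.

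Genotypes were also set side by side library by library. Over both sexes together, 0 of 53 members had genotypes without overlap in any of the 3 comparisons, while 0.855% of all genes did in Dp16-2xIFNRs over wild-type, 0.217% in Dp16 over wild-type and 0.158% in Dp16-2xIFNRs over Dp16. With 3 mice a group, separation within a sex was common over all genes. In males 11 of 53 members separated in Dp16-2xIFNRs over wild-type, against 16.2% of all genes. In Dp16 over wild-type 4 did, against 8.69%, and in Dp16-2xIFNRs over Dp16 6 did, against 4.7%. In females 4 members separated in Dp16-2xIFNRs over wild-type, against 8.64% of all genes, 3 in Dp16 over wild-type, against 11.4%, and 20 in Dp16-2xIFNRs over Dp16, against 28.2%.

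Ugt1a6b, which conjugates planar phenols, had the smallest p of all members in Dp16-2xIFNRs over wild-type. It had 23.3, 24.2 and 26.7 CPM in Dp16-2xIFNRs males, against 29.8, 40.0 and 41.1 CPM in wild-type males. It had 15.8, 19.7 and 20.2 CPM in Dp16-2xIFNRs females, against 26.6, 27.6 and 27.9 CPM in wild-type females. The genotypes did not overlap within either sex, though they did over both sexes together. The log2 fold change was -0.57 ± 0.15 (SE) with an unadjusted p of 0.00113 and an edgeR adjusted p of 0.201. Dp16 males had 19.2, 27.5 and 34.5 CPM and Dp16 females 17.5, 19.4 and 25.8 CPM, which gave -0.42 ± 0.15 over wild-type with an edgeR adjusted p of 0.718. The call was met in Dp16-2xIFNRs with DESeq2, at an adjusted p of 0.0246, and in edgeR without Dp16 libraries 4 and 5, at 0.0488, while the adjusted p ran up to 0.999 over the alternatives.

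Sult5a1, a periportal gene of the lists used here, had the smallest p of the members in Dp16 over wild-type. It had 3.55, 4.62 and 4.76 CPM in Dp16 males, against 7.84, 11.7 and 12.4 CPM in wild-type males. In females the values were 0.776, 2.36 and 4.99 CPM in Dp16, against 2.18, 5.67 and 19.2 CPM in wild-type mice. Males of the genotypes did not overlap and females did. The log2 fold change was -1.53 ± 0.42 with an edgeR adjusted p of 0.368, which became -0.97 without wild-type library 6, the female at 19.2 CPM. In Dp16-2xIFNRs over wild-type it was -0.88 ± 0.41 with an edgeR adjusted p of 0.574. DESeq2 gave the Dp16 difference an adjusted p of 0.049, and the adjusted p ran from there to 0.999 over all alternatives. Of the 12 periportal genes the other 11 were above 0 in Dp16 over wild-type. The median log2 change of all 12, Sult5a1 included, was 0.16, and 0 of 12 passed.

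Gstm4, Gstm7, Gstt1 and Gstt3, of the mu and theta classes, had an unadjusted p under 0.05 in Dp16 over wild-type and did not pass the adjusted test. Gstm7 had 69.4, 72.6 and 79.2 CPM in Dp16 males, against 80.4, 84.1 and 92.2 CPM in wild-type males. Dp16 females had 47.1, 70.5 and 88.6 CPM, against 81.5, 107.7 and 112.7 CPM in wild-type females. Dp16 males lay below all wild-type males, while females overlapped, and the log2 fold change was -0.38 ± 0.15 with an edgeR adjusted p of 0.865. Gstt1 and Gstt3, theta-class transferases that act on small halogenated compounds, had log2 fold changes of -0.38 ± 0.17 and -0.49 ± 0.21 in Dp16 over wild-type, with edgeR adjusted p of 0.943 for both. Gstt3 had a like value of -0.50 ± 0.21 in Dp16-2xIFNRs over wild-type, with an edgeR adjusted p of 0.547. The value of Gstm7 in Dp16-2xIFNRs over Dp16 was 0.38 ± 0.15, with an edgeR adjusted p of 0.532.

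Genes of the pericentral zone, where many conjugating enzymes are known to be highest, also had values mostly below 0. Of 14 pericentral genes 13 were below 0 in Dp16 over wild-type, with a median log2 change of -0.41, and 12 of 14 were below 0 in Dp16-2xIFNRs over wild-type, also with a median of -0.41. None of the 14 passed the adjusted test, and their summed level was 3891 to 5158 RPKM in Dp16-2xIFNRs, 3685 to 5898 RPKM in Dp16 and 5325 to 7322 RPKM in wild-type libraries. Whether this has a part in the Gst values was not tested. In whole liver, fewer cells of a type and less RNA per cell cannot be told apart.

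Gsto1, an omega-class transferase that also reduces dehydroascorbate, was among the members with the smallest p in Dp16-2xIFNRs over wild-type. It had 116.7, 121.5 and 133.7 CPM in Dp16-2xIFNRs males, against 69.5, 75.6 and 76.1 CPM in wild-type males, which did not overlap. Females had 127.4, 141.6 and 143.7 CPM in Dp16-2xIFNRs, against 81.6, 97.3 and 131.2 CPM in wild-type mice, which did. The log2 fold change was 0.57 ± 0.19 with an edgeR adjusted p of 0.404. Sult1a1 did not overlap in males either, with 336.5, 398.1 and 437.6 CPM in Dp16-2xIFNRs, against 229.2, 253.7 and 280.8 CPM in wild-type mice, and its log2 fold change over both sexes was 0.51 ± 0.19 with an edgeR adjusted p of 0.481. Ugt2b38 had 0.88 ± 0.31 with an edgeR adjusted p of 0.429.

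Sult2a3 and Sult3a2 could be compared in females only, since all 9 males had 0 counts of both. Sult2a3, a hydroxysteroid sulfotransferase, had 0.121, 0.390 and 1.33 CPM in Dp16-2xIFNRs females, 6.15, 8.29 and 14.2 CPM in Dp16 females, and 1.11, 11.7 and 11.8 CPM in wild-type females. Dp16-2xIFNRs females lay below all Dp16 females and overlapped with the lowest wild-type female. The log2 fold change was -3.91 ± 0.95 over Dp16 and -3.70 ± 0.94 over wild-type, with edgeR adjusted p of 0.532 and 0.252. Both differences passed in limma-voom when the labels' description number entered as a random block, at adjusted p of 0.0171 and 0.0217, and the adjusted p ran up to 0.954 and 0.762 over the alternatives. Sult3a2 had 2.86, 2.92 and 4.12 CPM in Dp16-2xIFNRs females, 9.66, 11.5 and 19.2 CPM in Dp16 females, and 1.29, 4.20 and 15.5 CPM in wild-type females. Its log2 fold change was -1.99 ± 0.69 over Dp16 with an edgeR adjusted p of 0.532. Ugt1a2 and Gstp2, the others with small unadjusted p, had -0.59 ± 0.26 and 0.68 ± 0.35 in Dp16-2xIFNRs over Dp16, with edgeR adjusted p of 0.532 and 0.544.

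Sult1e1, the estrogen sulfotransferase, is named after its values were seen because DESeq2 called it. It had 0.699, 2.30 and 2.56 CPM in Dp16-2xIFNRs males, 0, 0.106 and 0.516 CPM in Dp16 males, and 0, 0 and 0.198 CPM in wild-type males. In females it had 0.121 to 0.982 CPM in Dp16-2xIFNRs, 0.175 to 0.978 CPM in Dp16 and 0 to 0.25 CPM in wild-type mice. Dp16-2xIFNRs males lay above all other males, and the females of the groups overlapped. The edgeR log2 fold change over wild-type was 3.58 ± 1.14 with an adjusted p of 0.36, at a level too low to size the fold.

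**Figure D3:**
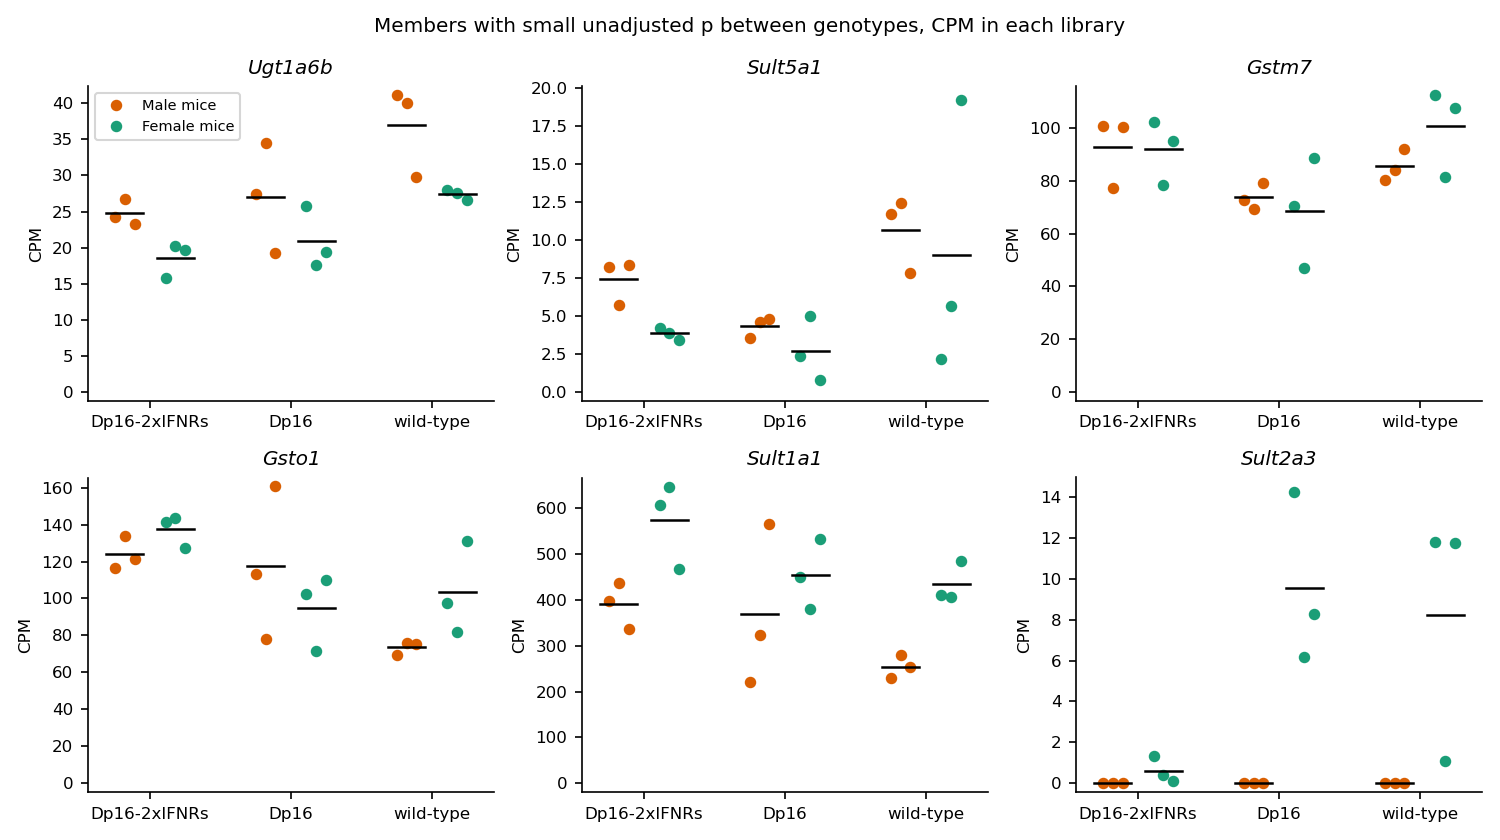
CPM (TMM-scaled) of Ugt1a6b, Sult5a1, Gstm7, Gsto1, Sult1a1 and Sult2a3 in each library by genotype, males left and females right within a genotype, with bars at the mean of 3 mice. Dp16-2xIFNRs lies below wild-type within each sex for Ugt1a6b, and all males are at 0 CPM for Sult2a3.

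Whether a genotype difference was unequal in the sexes was tested directly. In Dp16 and in Dp16-2xIFNRs over wild-type 0 of 53 members passed an adjusted p of 0.05, against 0% of all genes. For Sult2a3, Sult2a5 and Sult3a2 this test cannot show a difference, since all males had 0 counts. The median log2 change in males minus that in females was 0.34 for Dp16 and 0.21 for Dp16-2xIFNRs. It was above 0 in 36 and 34 of 53 members, beside 48.45% and 48.05% of all genes. At an unadjusted p under 0.05 there were 4 members for Dp16 (Ugt1a5, Gsto1, Sult2a8 and Ugt2b38), or 7.55%, beside 7.88% of all genes, and 0 for Dp16-2xIFNRs, beside 2.24%.

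The large differences among these enzymes lay between the sexes. In the same fit 23 of 53 members passed an adjusted p of 0.05 in males over females, or 43.4%, where 6.56% of all genes passed. Of these, 7 were higher in males, against 3.41% of all genes, and 16 were lower in males, against 3.16%. Males and females did not overlap at all in 13 of 53 members, against 1.87% of all genes. The calls split by family, with 2 Gst genes higher and 4 lower of 21 tested, 1 Sult gene higher and 8 lower of 14, and 4 Ugt genes higher and 4 lower of 18. When each library was left out in turn, 17 of the 23 members passed every time, and Gstm2, Gstm3, Sult1a1, Sult2a8, Ugt1a9 and Ugt2b5 lost the call in some omissions. With the shared description number as a random block Gstm2, Gstm3, Sult1a1 and Ugt1a9 did not pass, at limma-voom adjusted p of 0.202, 0.176, 0.0686 and 0.119.

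**Figure D4:**
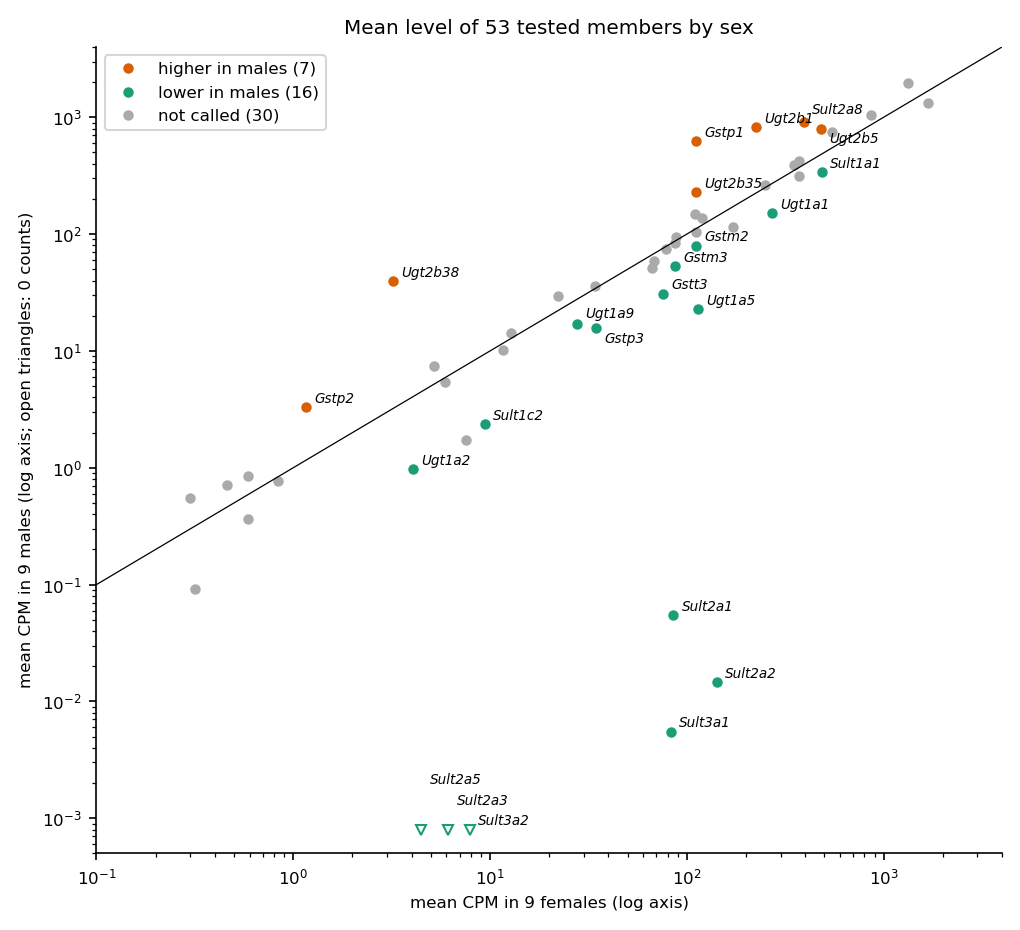
Mean CPM in 9 males against mean CPM in 9 females for the 53 tested members (both axes logarithmic), with the diagonal marking equal levels and colours marking the edgeR calls. Gstp1, Ugt2b1 and Ugt2b38 stand above the diagonal, and Sult2a3, Sult2a5 and Sult3a2 sit at the lower edge because males had 0 counts.

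Among glutathione transferases the pi class stood out. Gstp1 had 403, 634.8 and 840.2 CPM in males as the lowest, median and highest of 9, against 62.5, 120.3 and 153.8 CPM in females. No male overlapped with any female. The log2 fold change was 2.52 ± 0.20 (5.75-fold) with an edgeR adjusted p of 2.4e-08. Gstp2 was far less abundant, with 1.83, 3.36 and 5.08 CPM in males, against 0.474, 1.43 and 1.86 CPM in females, and was 3.04-fold higher in males with an edgeR adjusted p of 0.00125. How many reads of these relatives were shared was not tested. Gstp3 went the other way, with 10.1, 16.1 and 21.0 CPM in males, against 20.9, 30.9 and 73.3 CPM in females, a log2 fold change of -1.12 ± 0.20 and an edgeR adjusted p of 0.00104. The lowest female lay just under the highest male.

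Other Gst calls were lower in males. Gstt3 had 17.2, 27.1 and 56.1 CPM in males, against 46.6, 69.7 and 106.9 CPM in females, with a log2 fold change of -1.31 ± 0.18 and an edgeR adjusted p of 4.44e-05. The mu-class genes Gstm2 and Gstm3 changed by -0.48 and -0.71, close to the threshold, and Gstm1, Gstm4, Gstm5, Gstm6 and Gstm7 did not pass. None of the 4 alpha-class genes passed, the nearest being Gsta3 at 0.57 ± 0.18 with an edgeR adjusted p of 0.0617. Per length, Gstp1 averaged 731 ± 175 RPKM in males and 139 ± 33.5 RPKM in females (SD, n = 9 each). The highest mean of the family was that of Gsta3 in males, 1185 ± 207 RPKM, and that of Gstm1 in females, 1292 ± 333 RPKM. Summed Gst RPKM differed little, 4185 ± 292 in males and 3800 ± 465 in females.

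The glucuronosyltransferases divided by locus. Of the 7 Ugt2b genes tested, which act on steroids and many drugs and lie together on chromosome 5, 4 were higher in males and 0 lower. Ugt2b38 had 13.6, 43.5 and 74.6 CPM in males, against 1.85, 2.94 and 5.13 CPM in females, an 11.5-fold difference (log2 3.53 ± 0.27, edgeR adjusted p 2.11e-08). Ugt2b1 had 629.5, 820.2 and 1113 CPM in males, against 136.8, 208 and 325.1 CPM in females, a 3.71-fold difference (log2 1.89 ± 0.16, edgeR adjusted p 1.11e-07). Neither overlapped between the sexes. Ugt2b35 and Ugt2b5 were higher in males by 1.05 ± 0.20 and 0.75 ± 0.20, while Ugt2b34, Ugt2b36 and Ugt2b37 did not pass. Without Dp16 libraries 4 and 5 Ugt2b5 lost its call, at an edgeR adjusted p of 0.0692.

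Of the 8 Ugt1a genes tested, 4 were lower in males and 0 higher. Ugt1a5 had 14.2, 21.9 and 32.1 CPM in males, against 77.2, 98.2 and 175.8 CPM in females, with a log2 fold change of -2.27 ± 0.20 and an edgeR adjusted p of 1.11e-07. Ugt1a2 fell by 2.05 ± 0.22 on the log2 scale, at 0.979 ± 0.386 CPM in males and 4.06 ± 1.13 CPM in females (SD, n = 9 each). Ugt1a1 had 87.3, 146.8 and 194.8 CPM in males, against 229.2, 263.7 and 313.4 CPM in females, without overlap, with a log2 fold change of -0.85 ± 0.13 and an edgeR adjusted p of 0.000154. Ugt1a9 changed by -0.71 ± 0.21, near the threshold. Ugt1a6b had 0.41 ± 0.12 and an edgeR adjusted p of 0.0505. Summed Ugt RPKM averaged 1677 ± 234 in males and 1304 ± 235 in females (SD, n = 9 each).

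Sulfotransferases showed the widest gaps. Sult3a1, an amine sulfotransferase described in mice, had 2 counts in all 9 males together and 40197 in the 9 females, a ratio with an exact 95% counting interval of 5206 to 155311. Sult3a2, its neighbour on chromosome 10, had 0 and 4098 counts, so it was at least 1278-fold lower in males. Sult2a3 and Sult2a5 also had 0 counts in males, against 2965 and 2059 in females, at least 925-fold and 642-fold lower. These bounds set 3 counts over the 9 males as the floor and cover counting error only. Sult2a2 had 6 counts in males and 66405 in females, and Sult2a1 had 17 and 40912, with 1 and 2 males above 0. All 6 genes were called lower in males in every omission of a library.

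In females these genes varied strongly. Sult2a2 had 35.6, 117.8 and 297.2 CPM as the lowest, median and highest of 9 females, and Sult2a1 had 9.70, 76.5 and 185.4 CPM. Sult3a1 was steadier at 40.8, 74.6 and 133.1 CPM. Sult1c2 had 0.983, 2.53 and 3.38 CPM in males, against 6.73, 9.26 and 13.0 CPM in females, with a log2 fold change of -2.01 ± 0.22 and an edgeR adjusted p of 3.19e-06. Sult1a1 changed by -0.54 ± 0.16, an edgeR adjusted p of 0.0411.

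Sult2a8 was the single sulfotransferase called higher in males, and its groups overlapped. It had 419.6, 764.7 and 1598 CPM in males, against 135.6, 251.1 and 1161 CPM in females, with a log2 fold change of 1.34 ± 0.38 and an edgeR adjusted p of 0.0401. The highest female was wild-type library 6. The call was lost without Dp16 libraries 4 and 5, at an edgeR adjusted p of 0.0906, and in 12 of 18 omissions of 1 library. Sult2a7 had 0.425 to 4.03 CPM in males and 1.19 to 28.7 CPM in females, with an edgeR adjusted p of 0.0574. Summed Sult RPKM averaged 656 ± 201 in males and 1004 ± 277 in females (SD, n = 9 each).

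**Figure D5:**
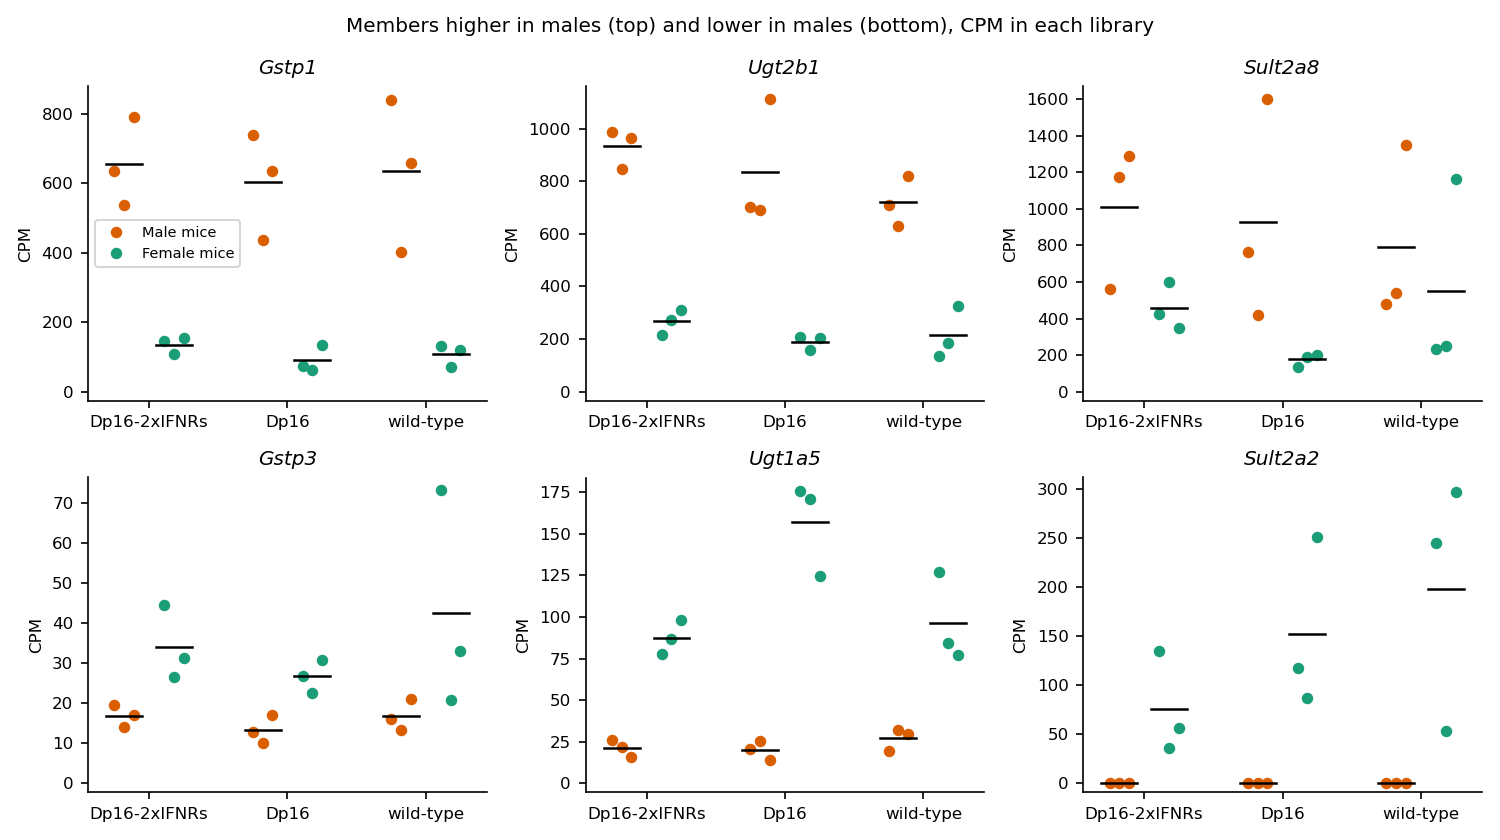
CPM (TMM-scaled) in each library by genotype, males left and females right, for 3 members higher in males (Gstp1, Ugt2b1, Sult2a8) and 3 lower in males (Gstp3, Ugt1a5, Sult2a2), with bars at the mean of 3 mice. The sexes separate in every genotype for Gstp1, Ugt2b1, Ugt1a5 and Sult2a2, while Sult2a8 overlaps in Dp16-2xIFNRs and in wild-type mice.

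Genes around conjugation were read from lists, each counted over the genes tested. Of 12 genes that supply UDP-glucuronate, PAPS and glutathione, 0 passed between genotypes, and in males 4 were higher and 1 lower, with a median change of 0.36 on the log2 scale beside -0.02 over all genes. Ugdh, which makes UDP-glucuronate, was higher in males by 0.48 ± 0.13, Slc35b1 by 0.84 ± 0.14 and Gsr, glutathione reductase, by 0.48 ± 0.11, while Papss2, which makes PAPS, fell by 1.12 ± 0.17 on the log2 scale. Of 16 other conjugating enzymes, 0 passed between genotypes. In Dp16 over wild-type 14 of the 16 were below 0 (median -0.20), and in Dp16-2xIFNRs over Dp16 13 were above 0 (median 0.23). In Dp16-2xIFNRs over wild-type 11 were above 0 (median 0.06). Between the sexes 4 were higher and 1 lower in males (median 0.46). Tpmt, a methyltransferase of thiopurines, was higher by 0.96 ± 0.11. Of 12 carriers of conjugates 0 passed between genotypes, with 3 higher and 3 lower in males (median -0.27). Abcg2 was higher by 1.78 ± 0.13, and Abcc4 and Slco1a4 had values of -1.77 ± 0.27 and -2.74 ± 0.24. Slc22a7, an organic anion carrier, had the smallest p of the carriers between genotypes, at -1.16 ± 0.31 in Dp16-2xIFNRs and -1.63 ± 0.31 in Dp16 over wild-type, with edgeR adjusted p of 0.22 and 0.0781.

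Of 18 regulators 0 passed between genotypes, and 1 was higher and 3 lower in males (median -0.30). In Dp16-2xIFNRs 16 of the 18 were below 0 over Dp16 (median -0.35) and 14 over wild-type (median -0.23). In Dp16 over wild-type 9 were below 0 (median 0.01). Nr1i3 had the smallest p in both comparisons with wild-type, at -1.03 ± 0.21 in Dp16-2xIFNRs and -0.62 ± 0.21 in Dp16, with edgeR adjusted p of 0.0701 and 0.65. Bach1, a repressor of NRF2 targets that lies in the added segment, had 0.51 ± 0.23 in Dp16 over wild-type with an edgeR adjusted p of 0.949. Of 16 NRF2 targets outside the family 0 passed between genotypes, with 3 higher and 2 lower in males (median 0.12), Nqo1 among the lower at -1.07 ± 0.24. Between the sexes Cux2, a female-specific repressor in mouse liver, fell by 7.46 ± 0.55 on the log2 scale in males, Nr1i3 by 1.02 ± 0.17 and Ahr by 0.87 ± 0.20, while Onecut1 was higher by 1.96 ± 0.51. All 14 tested genes of a list of male-biased liver genes were higher in males and all 16 of a female-biased list were lower. Those lists were known to hold sex-biased genes, so this checks the labels and the tissue.

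Markers of other cell types were counted in the same way. Of the 8 cholangiocyte, 8 Kupffer cell, 7 endothelial, 8 stellate cell, 8 T, B and NK cell and 6 neutrophil and monocyte markers tested, 0 passed in any comparison. Of 3 intestinal markers tested 0 passed in any comparison, and of the pancreatic acinar markers the single one tested, Cela1, was higher in males by 1.07 ± 0.27 with an edgeR adjusted p of 0.0205. Summed neutrophil and monocyte markers ran from 10.5 to 34.7 RPKM in Dp16-2xIFNRs, from 10.2 to 33.7 RPKM in Dp16 and from 3.65 to 11.6 RPKM in wild-type libraries. Summed erythroid markers ran from 116.7 to 322.9 RPKM in Dp16-2xIFNRs, from 19.8 to 392.6 RPKM in Dp16 and from 70.1 to 132.2 RPKM in wild-type libraries. Of the 6 tested 0 passed between genotypes, the smallest edgeR adjusted p being 0.119, of Hba-a1 in Dp16-2xIFNRs over wild-type. Hba-a2 had log2 fold changes of 2.14 ± 0.55 in Dp16-2xIFNRs and 1.61 ± 0.55 in Dp16 over wild-type, with edgeR adjusted p of 0.183 and 0.65. Of the erythroid markers Alas2 was higher in males. Of the 5 adipocyte markers Cfd was the single one that passed the filter on low counts, and it was higher in males. Lep was at 0 in every library. The 5 adipocyte markers summed to 1.38 to 21.5 RPKM in males and 0 to 0.403 RPKM in females. The part of these markers in the members' values was not tested.

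Motifs were counted in the members' promoter windows as a description. The STAT5 motif TTCNNNGAA was in windows of Gsta1, Gstm6, Sult3a1 and Ugt1a6a, 4 of the members' 60 windows or 6.67%, and in 8.30% of all windows. Of these genes Sult3a1 alone was called by sex. The antioxidant response element core TGACNNNGC was in windows of Gsta3, Gstm5 and Gstm7, 3 of the 60 windows or 5%, and in 12.4% of all windows. Both were searched on either strand. Letters of one motif may overlap with those of another. A missing match says only that these letters are not in the 300 bases shown by RefSeq.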

How the data were processed

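Liver RNA of 18 mice was sequenced as strand-specific polyadenylated-RNA libraries with paired-end reads. The authors deposited whole-number counts per gene, and RPKM, which was checked on the file to be these counts scaled to gene length and library total. Per the submitters' processing notes the tools were HISAT2 2.1.0, SAMtools 1.5, HTSeq 0.6.1, FastQC 0.11.5 and bcl2fastq, on build GRCm38. The sources used here do not give how counting treated strand and shared reads. The deposited counts are labelled with a later GENCODE release than M21, which was used here for coordinates and exons. Of all gene identifiers 98.38% were found in M21, and all 57 members matched it by versioned identifier.

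Groups were taken from the labels. Counts of all 18 libraries were fitted together in edgeR 4.0.16 (R 4.3.3) with TMM factors, filterByExpr by group, terms for group and sex and robust quasi-likelihood tests, adjusted by Benjamini-Hochberg over 15208 genes and called under 0.05. The interaction of sex and genotype was added in a separate fit. The script was tested on simulated data. Per-library CPM are TMM-scaled; levels compared between genes are RPKM. Fold differences of genes absent in males came from summed counts, with a floor of 3 counts over the group. Alternatives included DESeq2 1.42.0 and limma 3.58.1.

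Named members are, for each genotype comparison, the 5 with the smallest unadjusted p at a mean log2 CPM of at least 1, for sex the 5 called with the largest change in each direction at that level, and the 4 with the highest mean RPKM in each family. From other lists up to 4 called genes, or those with the smallest p, are named. Other members described by sex, and Bach1, were added after their values were seen. Members and lists were chosen with earlier results of these data known.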

Additional observations from a re-analysis of the deposited data

Results flagged for a closer look

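Of 75 sets of 6 libraries examined for a single library far from the rest, 5 had one, and chance gives about 1 in 20. Gstm1 was highest in wild-type library 3, a female, at 2328 CPM, against 1228 to 1402 CPM in the other 5. Gsta3 was highest in Dp16 library 4, a male, at 3047 CPM, against 736.9 to 1525 CPM. Among genes at or near 0 CPM in males, Sult2a1 reached 76.5 CPM and Sult2a3 reached 1.33 CPM in Dp16-2xIFNRs library 2, a female. The others of that group had at most 17.2 and 0.390 CPM. Sult3a2 reached 15.5 CPM in wild-type library 6, a female, against at most 4.20 CPM. All of these sets mix both sexes, and for the last 3 genes males were at or near 0 CPM.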

How the results depend on the processing

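The counts of 0 members called between genotypes held in edgeR with other scaling, filters and covariates, with each library left out (0 to 0 members), and in limma on RPKM. DESeq2 called 1 member lower in Dp16 over wild-type (Sult5a1), and 1 higher (Sult1e1) and 1 lower (Ugt1a6b) in Dp16-2xIFNRs over wild-type. With the description number as a random block in limma-voom, 1 member (Sult2a3) was lower in Dp16-2xIFNRs over wild-type and 1 over Dp16; without Dp16 libraries 4 and 5, 1 member (Ugt1a6b) was lower in Dp16-2xIFNRs over wild-type. The cause was not tested. Members higher in males numbered 5 to 9 and members lower in males 12 to 16 when each library was left out, and 6 to 9 and 12 to 17 under the other alternatives. Sult2a8 lost its sex call without a low count filter, at an adjusted p of 0.129. With the replicate number as a block there were 0 calls between genotypes, and 8 members higher and 12 lower in males. Deviations of libraries with the same replicate number had correlations of -0.377 to 0.255, 5 of 18 over 0.1. Some of these libraries also share a description number, and these correlations cannot tell whether they share more than a number. No called result changed sign. The median log2 change of all 53 members ran from -0.31 to -0.02 in Dp16 over wild-type, from -0.14 to 0.12 in Dp16-2xIFNRs over wild-type and from 0.07 to 0.29 in Dp16-2xIFNRs over Dp16 when each library was left out. With 6 mice a group and a median biological coefficient of variation of 0.351, small differences may pass unnoticed.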
